A study of Mus musculus with 2 samples.

Results

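Vitamin A genes were followed across the cell types of the fibrotic mouse liver. The set held 9 genes of retinoid storage and signalling, given as a list of names, among 31054 features counted. Lrat, Rdh10, Dhrs3, Aldh1a1, Aldh1a2, Cyp26b1, Rara, Rarb and Rxra were all present in the count tables. Cells came from livers of male mice on a C57BL/6 background, and the hepatic stellate cells (HSCs) had been enriched by pronase and collagenase digestion and a Nycodenz density gradient. All mice had received carbon tetrachloride (CCl4), a hepatotoxin that causes fibrosis, for 4 weeks, together with tamoxifen and diphtheria toxin. The p16-Alb-LRTD genotype carried p16-CreERT2, Alb-DreERT2 and the R26-CAG-LSL-RSR-tdTomato-2A-DTR allele, so that hepatocytes with high p16 expression bore the toxin receptor and were eliminated. The p16-LRTD control genotype carried the same p16-CreERT2 and reporter alleles without the Dre recombinase that the albumin gene drives. The p16-Alb-LRTD males were heterozygous per the methods of the study. The study raises leaky expression of the toxin receptor in mice with the Dre allele as a limit of this model. Ages and the number of mice behind a library are not given in the sources used here. There was 1 library per genotype, so no test was possible, and every interval below is a 95% interval for counting error alone.

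Retinol that reaches the liver is esterified by Lrat and kept in the lipid droplets of HSCs. When it is needed, Rdh10 oxidises retinol to retinal and Dhrs3 turns retinal back into retinol, while the Aldh1a enzymes oxidise retinal to retinoic acid. Retinoic acid binds the receptors Rara and Rarb, which pair with Rxra on DNA, and Cyp26b1 clears it by hydroxylation. Loss of the vitamin A droplets is a classical sign of HSC activation.

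Cells were assigned by summed marker transcripts per 10000 unique molecular identifiers (UMIs). A stellate cell needed 15 of Lrat, Ecm1, Hgf and Reln, an endothelial cell 8 of Kdr, Stab2 and Ptprb, and a Kupffer cell 8 of Clec4f, Cd5l, Vsig4 and Csf1r. Because Lrat is itself part of the stellate definition, its level in stellate cells is a description only. Among cells that passed the quality limits of the study and met 1 definition alone, the p16-LRTD library gave 7852 stellate, 430 endothelial and 283 Kupffer cells, and the p16-Alb-LRTD library gave 6621, 283 and 178. The class names held against markers outside the definitions. The 10 further stellate markers summed to 34742.3 and 37290.0 CPM, that is counts scaled to a common class total, in stellate cells of p16-LRTD and p16-Alb-LRTD, against 986.1 and 852.3 in endothelial cells and 502.9 and 443.7 in Kupffer cells. The 12 further endothelial markers summed to 11209.2 and 11409.1 CPM in endothelial cells, and the 12 further Kupffer markers to 21726.1 and 23325.1 CPM in Kupffer cells.

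The libraries held 11149 and 8806 barcodes, of which 95 were shared, and 193746596 and 162219167 UMIs. Several whole programs moved with the library. The 10 activation genes summed to 9950.4 CPM in the control library and 3841.2 CPM in that of p16-Alb-LRTD for stellate cells, 717.5 and 57.2 in endothelial cells, and 173.8 and 54.8 in Kupffer cells. The 15 genes of the dissociation stress list summed to 8381.4 and 12493.1 CPM in stellate cells, 4398.8 and 7600.4 in endothelial cells, and 5467.4 and 7032.2 in Kupffer cells. All 15 were higher in p16-Alb-LRTD in stellate and in Kupffer cells, and 14 of 15 in endothelial cells. The 9 proliferation genes summed to 164.4 and 31.9 CPM in stellate cells, where all 8 that reached the minimum were lower in p16-Alb-LRTD, to 85.8 and 18.8 in endothelial cells and to 95.7 and 52.1 in Kupffer cells. The 5 smooth muscle genes summed to 984.0 and 728.1 CPM in stellate cells and to 38.3 and 8.79 in endothelial cells. Outside stellate cells, the activation and smooth muscle sums were far below the stellate sums of the same library. Stellate transcripts such as Dcn were found at low levels in these classes, as given below. Their part in these sums was not tested, so the sums are not read as endothelial or Kupffer programs. The 15 hepatocyte markers summed to 1686.1 and 2374.1 CPM in Kupffer cells, mostly Apoc1 at 1317.4 and 2047.3. The 6 bile duct markers summed to 17.2 and 70.0 CPM in endothelial cells, of which Spp1 gave 15.4 and 64.5. The part of these programs in the retinoid values below was not tested, except where values within bins of collagen level are given.

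The levels of several members differed between the classes. Lrat, Aldh1a1 and Rarb were stellate genes that Kupffer cells held at no more than 2.17% of the stellate level. Lrat in Kupffer cells reached 1.5% of the stellate level in p16-LRTD and 1.20% in p16-Alb-LRTD, Aldh1a1 1.91% and 0.648%, and Rarb 1.52% and 2.17%. The stellate genes Dcn and Colec11, known from mesenchymal cells and not from macrophages, were at 1.31% and 1.0% and at 1.19% and 1.07% there. Endothelial cells differed from this for Rarb, which reached 67.4% and 91.0% of the stellate level, and for Cyp26b1, which was nearly absent from the other classes. Dhrs3, Rara, Rxra and Rdh10 were present in all 3 classes, Rdh10 at 42.2% and 39.9% of the stellate level in endothelial cells and 61.8% and 67.6% in Kupffer cells. The plot of levels by class sets these patterns side by side.

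**Figure D1:**
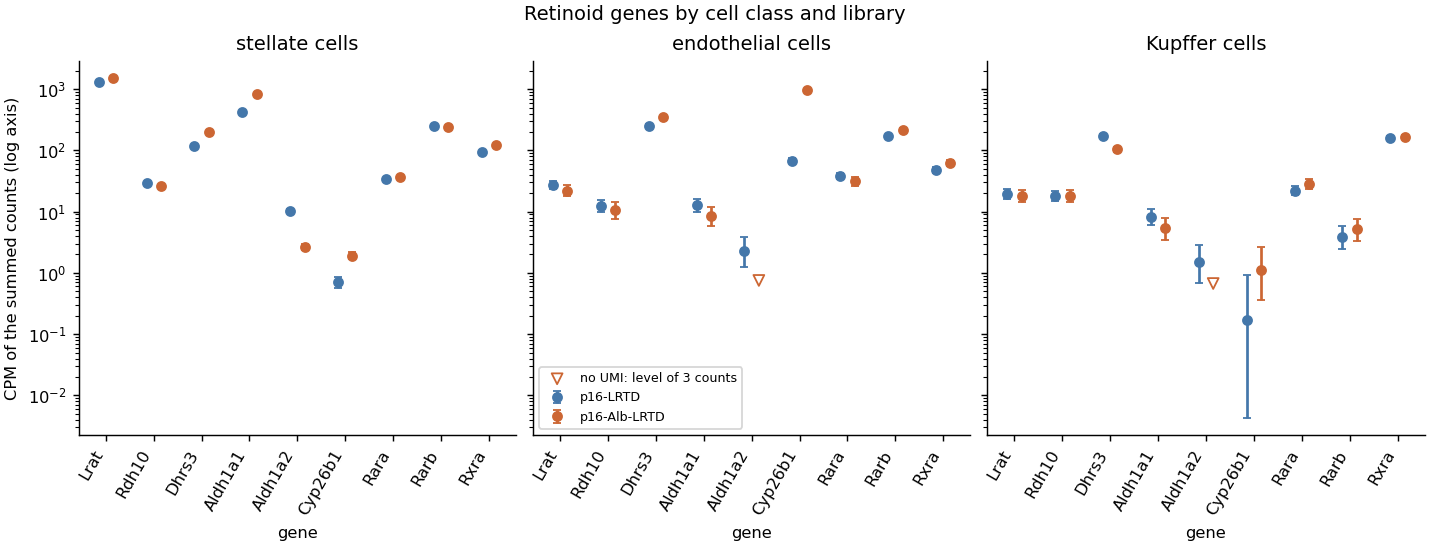
CPM of the summed counts of each gene (log axis) in stellate, endothelial and Kupffer cells of p16-LRTD (blue) and p16-Alb-LRTD (orange), with 95% exact Poisson intervals, and open triangles at the level of 3 counts where no UMI was found. Cyp26b1 in endothelial cells stood at 68.2 and 972.1 CPM, while in stellate and Kupffer cells it stayed at or below 1.90 CPM.

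Cyp26b1, the enzyme that clears retinoic acid, gave the widest difference between the libraries among the members that reached the expression minimum. Endothelial cells held 68.2 CPM (61.9 to 75.1) of it in the control library and 972.1 CPM (941.7 to 1003.2) in that of p16-Alb-LRTD. The log2 ratio was 3.83 (3.69 to 3.98), or 14.2-fold, and ranked 5 from the top among 9858 genes with a mean of at least 5 CPM in endothelial cells. This rests on 420 and 3872 UMIs. The gene lies on the minus strand of chromosome 6 (chr6:84571414-84593908, GRCm38) and overlaps no other counted gene. Its promoter window, 250 bases before to 50 after the start site in RefSeq (chr6:84593761-84594060, GRCm38.p6, minus strand), is shown because this gene carried that difference. Capitals mark a TATAAA run, with 133 bases between it and the start site. Such a run was present on either strand in 13.6% of 32851 such windows and in no window of the other members. It is a description of the letters and was not tested as a site.
Cyp26b1: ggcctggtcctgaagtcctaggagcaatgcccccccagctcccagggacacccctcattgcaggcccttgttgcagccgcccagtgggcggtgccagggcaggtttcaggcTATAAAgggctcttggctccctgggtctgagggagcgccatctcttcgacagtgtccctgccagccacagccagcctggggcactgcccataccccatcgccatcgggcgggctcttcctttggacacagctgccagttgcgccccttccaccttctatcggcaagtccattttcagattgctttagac

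The difference in Cyp26b1 was spread over the endothelial cells and did not sit in a few of them. After each cell had been thinned to 5000 UMIs, 80 of 418 cells (19.1%, exact binomial interval 15.5 to 23.2) had a Cyp26b1 UMI in p16-LRTD and 225 of 283 (79.5%, 74.3 to 84.1) in p16-Alb-LRTD. Thinning left out 12 shallower p16-LRTD cells and no p16-Alb-LRTD cell, and the shares without it were 31.2% and 88.7%. Kupffer cells gave the background, with 0 of 278 cells in p16-LRTD, which allows a share of cells with a UMI of up to 1.08% by the limit of 3 counts and 1.32% by the two-sided exact interval, and 1 of 177 cells (0.565%, 0.0143 to 3.11) in p16-Alb-LRTD. Median depths were 11781 and 11992 UMIs in endothelial cells and 19514 and 25101 in Kupffer cells. The median endothelial cell held no Cyp26b1 UMI in p16-LRTD and 7.32 per 10000 UMIs in p16-Alb-LRTD, and the cell at the percentile of 90 held 2.08 and 21.2.

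**Figure D2:**
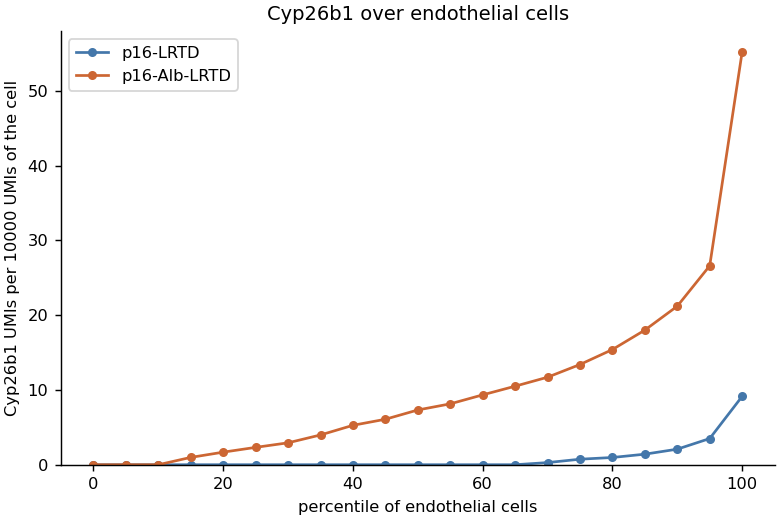
Cyp26b1 UMIs per 10000 UMIs of the cell at each percentile of endothelial cells, for p16-LRTD (blue) and p16-Alb-LRTD (orange). The p16-Alb-LRTD curve leaves 0 below the percentile of 25 and reaches 55.2, while the p16-LRTD curve stays at 0 past the median and ends at 9.14.

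Endothelial cells were also divided by lobular side, a division chosen after the values had been seen. Cells with more Wnt2, Wnt9b, Rspo3 and Kit than Dll4 and Efnb2 UMIs were called central and the reverse portal. The side genes themselves differed between the libraries, with log2 ratios of 1.65 for Wnt2, 2.02 for Wnt9b, 1.90 for Rspo3, 0.66 for Kit, -1.18 for Dll4 and -0.15 for Efnb2, so that side and library were not independent. Central cells numbered 161 (37.4%) in p16-LRTD and 195 (68.9%) in p16-Alb-LRTD, and without Wnt2 among the side genes 120 (27.9%) and 145 (51.2%). Whether the makeup of the lobule or the level of these genes differed cannot be told apart. Cyp26b1 was higher on the central side within either library, by a log2 ratio of 0.93 (0.64 to 1.23) in p16-LRTD and 0.54 (0.41 to 0.66) in p16-Alb-LRTD. On the portal side it went from 50.1 CPM (42.7 to 58.4) in p16-LRTD to 735.8 CPM (679.5 to 795.5) in p16-Alb-LRTD, and on the central side from 95.7 (84.1 to 108.4) to 1068.6 (1031.7 to 1106.6). The log2 ratios between the libraries were 3.88 (3.62 to 4.13) and 3.48 (3.29 to 3.67), and 3.63 when each library was given the pooled shares of the sides. With sides called without Wnt2 the log2 ratios were 3.72 (3.52 to 3.94) and 3.59 (3.37 to 3.81), so the Cyp26b1 difference was present on either side under both calls.

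The pattern of Cyp26b1 over the 6 values of class and library had few close neighbours. By root mean square difference of centred log2(CPM + 1), the nearest of 8923 genes was Cdh13, a cadherin, at 0.66, with 115.4 and 486.5 CPM in endothelial cells of p16-LRTD and p16-Alb-LRTD. Wnt2, a ligand of central vein endothelium, followed at 0.73 with 97.0 and 304.5 CPM, and Aass at 0.98 with 182.5 and 328.1 CPM. For the other members with at least 20 CPM in a class the nearest gene lay within 0.26. Lrat was closest to Mustn1 (0.09), Tcf21 (0.11) and Cxcl12 (0.14), Aldh1a1 to Bco1 (0.26), and Rarb to Gstm2 (0.17).

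In stellate cells Cyp26b1 remained below the minimum of 5 CPM. It gave 100 UMIs in p16-LRTD and 238 in p16-Alb-LRTD, which are 0.701 CPM (0.570 to 0.853) and 1.90 CPM (1.67 to 2.16), a log2 ratio of 1.44 (1.10 to 1.79). These UMIs came from 1.11% and 2.79% of the cells. With barcodes of several classes kept the ratio was 3.59 (3.40 to 3.78). The stellate level was 1.03% and 0.196% of the endothelial level, beside 1.94% and 1.47% for the sum of the 12 further endothelial markers. Single markers ran from 0.106% (Oit3) to 11.6% (Bmp2) in p16-LRTD, where most lay below Cyp26b1. In p16-Alb-LRTD they ran from 0.0569% (Flt4) to 6.14% (Bmp2). The ratio of Cyp26b1 is thus not read as a stellate difference. Kupffer cells gave 1 and 5 UMIs, a log2 ratio of 2.73 whose interval ran from -0.43 to 8.30. The related enzymes Cyp26a1 and Cyp26c1 gave at most 6 UMIs in any class and library.

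Dhrs3, which returns retinal to retinol, differed between the libraries in opposite directions in different classes. Stellate cells held 119.0 CPM (117.2 to 120.8) in the control library and 198.2 CPM (195.8 to 200.7) in that of p16-Alb-LRTD, with a log2 ratio of 0.74 (0.71 to 0.76). Endothelial cells held 252.2 CPM (239.8 to 265.0) and 347.5 CPM (329.4 to 366.3), a log2 ratio of 0.46 (0.36 to 0.57). Within the sides described above it was 0.20 (-0.04 to 0.42) on the portal and 0.31 (0.18 to 0.45) on the central side, and without Wnt2 in the side call 0.38 (0.21 to 0.55) and 0.27 (0.12 to 0.42). Kupffer cells held 172.9 CPM (162.5 to 183.8) and 103.7 CPM (94.5 to 113.6), a log2 ratio of -0.74 (-0.90 to -0.58). Over the 6 values the order ran from endothelial p16-Alb-LRTD cells through endothelial p16-LRTD, stellate p16-Alb-LRTD, Kupffer p16-LRTD and stellate p16-LRTD to Kupffer p16-Alb-LRTD cells, and no neighbours in it had overlapping intervals. The difference between classes itself was not tested.

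The lower Dhrs3 of p16-Alb-LRTD Kupffer cells was present in cells with and without a Clec4f UMI, a resident Kupffer marker. This division, too, was chosen after the values had been seen. In the 256 and 166 cells with Clec4f, Dhrs3 stood at 140.6 CPM (130.6 to 151.1) in the control library and 97.3 CPM (88.1 to 107.2) in that of p16-Alb-LRTD, with a log2 ratio of -0.53 (-0.71 to -0.35). In the 27 and 12 cells without it, the levels were 420.2 CPM (373.1 to 471.5) and 193.3 CPM (146.8 to 249.9), a log2 ratio of -1.12 (-1.55 to -0.71). Spp1, which some macrophages and bile duct cells make, stood at 312.9 and 141.3 CPM in Kupffer cells, and its part in the Dhrs3 values was not tested. Among Kupffer cells with 10000 to 30000 UMIs the log2 ratio was -0.38, outside the counting interval of the whole class.

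Aldh1a1, an oxidase of retinal to retinoic acid, was higher in the stellate cells of p16-Alb-LRTD. Stellate cells held 430.7 CPM (427.3 to 434.1) in the control library and 827.8 CPM (822.8 to 832.9) in that of p16-Alb-LRTD, with a log2 ratio of 0.94 (0.93 to 0.96) or 1.92-fold. It was detected in nearly all of them, in 97.3% and 99.2% of cells, and after thinning in 81.6% (80.7 to 82.4) and 92.0% (91.4 to 92.7). The cell at the percentile of 25 held 2.26 and 4.23 UMIs per 10000, the median cell 3.71 and 6.94, and the cell at the percentile of 90 held 7.78 and 14.9. The values of p16-Alb-LRTD were higher at each of these percentiles. Endothelial cells gave 12.7 and 8.54 CPM and Kupffer cells 8.24 and 5.37 CPM, with log2 ratios of -0.57 (-1.20 to 0.03) and -0.62 (-1.39 to 0.11). Some divisions of the cells gave intervals that excluded 0, at -1.19 (-1.91 to -0.50) on the central endothelial side, -1.0 (-1.81 to -0.22) there without Wnt2 in the side call, and -0.84 (-1.67 to -0.05) in Kupffer cells with Clec4f. The Kupffer ratio was -0.89 (-1.61 to -0.21) with the upper quality limits lifted, 0.22 (-0.76 to 1.17) in cells with 10000 to 30000 UMIs and -0.13 with means of per-cell CPM. In endothelial cells it was 1.38 (1.28 to 1.48) with barcodes of several classes kept, -0.69 (-1.28 to -0.12) with doubled thresholds and 0.00 with means of per-cell CPM, and 1 p16-LRTD cell held 18 of the UMIs. Endothelial Aldh1a1 stood at 2.94% and 1.03% of its stellate level, beside 1.73% and 1.16% for Dcn, and is not read as an endothelial difference. Aldh1a1 lies on chromosome 19 (chr19:20492715-20643465, plus strand) and overlaps the antisense gene C730002L08Rik. Reads of its near-identical paralog Aldh1a7 may be split between the copies.

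Aldh1a2, the retinal oxidase that acts in the embryo and in mesothelium, went the other way. Stellate cells held 10.4 CPM (9.87 to 10.9) in the control library and 2.64 CPM (2.36 to 2.94) in that of p16-Alb-LRTD, with a log2 ratio of -1.98 (-2.16 to -1.81), or 3.94-fold lower, on 1483 and 330 UMIs. It ranked 23 from the bottom among 10179 genes, having reached the minimum of a mean of 5 CPM only through p16-LRTD, where it is high, so its rank is a description. Few cells carried it, since 9.35% and 3.41% of stellate cells had a UMI, and in p16-LRTD the top 5% of cells held 77.0% of its UMIs. Endothelial cells gave 14 UMIs in p16-LRTD and 0 in p16-Alb-LRTD, and Kupffer cells 9 and 0. Single p16-LRTD cells held 7 of the 14 and 6 of the 9, and after thinning to 5000 UMIs no endothelial or Kupffer cell of either library had a UMI, and after thinning to 3000 UMIs 1 of 430 p16-LRTD endothelial cells had one, so no difference is read from these cells. The 7 mesothelial markers summed to 2.20 and 0.376 CPM in stellate cells, with none listed at 0 in both libraries, and the 9 portal fibroblast markers to 139.2 and 106.3 CPM. Of the 4 portal fibroblast markers that reached the minimum 3 were lower in p16-Alb-LRTD, while Eln, the most abundant, stood at 54.7 and 64.7 CPM. Without cells that had a UMI of either list, which left 3711 and 2794 stellate cells, the log2 ratio of Aldh1a2 was -1.28. That alternative was added after the data had been seen.

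Lrat and Rdh10 were within 1.5-fold between the libraries in all 3 classes. In stellate cells Lrat, the esterifying enzyme, stood at 1305.1 CPM (1299.2 to 1311.1) in the control library and 1509.1 CPM (1502.3 to 1515.9) in that of p16-Alb-LRTD, with a log2 ratio of 0.21 (0.20 to 0.22). With a stellate definition of Ecm1, Hgf and Reln alone, the same ratio was 0.21. Its endothelial levels were 27.6 CPM (23.6 to 32.1) and 22.1 CPM (17.7 to 27.2), and its Kupffer levels 19.5 CPM (16.1 to 23.4) and 18.1 CPM (14.4 to 22.5), in both cases with overlapping intervals. The endothelial log2 ratio of Lrat, -0.32 (-0.71 to 0.06), depended on the class definition, at -0.96 (-1.30 to -0.62) with doubled thresholds and 0.70 (0.64 to 0.75) with barcodes of several classes kept. These levels were 2.12% and 1.46% of the stellate level, beside 1.73% and 1.16% for Dcn and 1.64% and 1.40% for Colec11, and are not read as endothelial expression. Rdh10, which opens the oxidation of retinol, held 29.7 CPM (28.8 to 30.6) and 26.4 CPM (25.5 to 27.4) in stellate cells, a log2 ratio of -0.17 (-0.23 to -0.10). Its ratios were -0.25 (-0.83 to 0.31) in endothelial cells and -0.04 (-0.47 to 0.39) in Kupffer cells.

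No receptor gene of the set was past 1.5-fold in a class where it reached the minimum. In stellate cells Rxra, the common partner of the retinoic acid receptors, held 95.8 CPM (94.2 to 97.4) in the control library and 124.1 CPM (122.2 to 126.1) in that of p16-Alb-LRTD, with a log2 ratio of 0.37 (0.34 to 0.41). Endothelial cells held 48.7 CPM (43.4 to 54.6) and 62.8 CPM (55.2 to 71.0), a log2 ratio of 0.36 (0.12 to 0.61). Within the endothelial sides described above it was 0.59 (0.13 to 1.04) on the portal and 0.18 (-0.15 to 0.51) on the central side. Without Wnt2 in the side call it was 0.46 (0.08 to 0.83) and 0.32 (-0.07 to 0.72). Kupffer cells held 162.2 CPM (152.1 to 172.7) and 165.7 CPM (153.9 to 178.0), above the other classes in either library, with a log2 ratio of 0.03 (-0.11 to 0.17). Rara held 34.6 CPM (33.6 to 35.6) and 36.4 CPM (35.4 to 37.5) in stellate cells, 38.2 CPM (33.5 to 43.4) and 31.4 CPM (26.1 to 37.4) in endothelial cells, and 22.0 CPM (18.4 to 26.1) and 28.4 CPM (23.7 to 33.8) in Kupffer cells. Its log2 ratios were 0.07 (0.02 to 0.13) in stellate cells, -0.28 (-0.61 to 0.04) in endothelial cells and 0.37 (0.00 to 0.73) in Kupffer cells. In endothelial and in Kupffer cells the intervals of the levels overlapped.

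In stellate cells Rarb, a receptor gene that retinoic acid itself induces in many cells, held 254.0 CPM (251.3 to 256.6) in the control library and 236.7 CPM (234.0 to 239.4) in that of p16-Alb-LRTD, with a log2 ratio of -0.10 (-0.12 to -0.08). Endothelial cells held 171.1 CPM (160.9 to 181.8) and 215.4 CPM (201.2 to 230.3), a log2 ratio of 0.33 (0.20 to 0.46). Within sides, whose marker genes moved with the library as given above, the Rarb ratios were -0.15 (-0.50 to 0.20) on the portal and 0.02 (-0.13 to 0.18) on the central side. Without Wnt2 in the side call they were 0.07 (-0.18 to 0.31) and 0.03 (-0.14 to 0.20), and with pooled shares of the sides -0.03 with Wnt2 and 0.07 without. Rarb was higher on the central side in either library, by 1.18 (0.99 to 1.37) and 1.35 (1.02 to 1.69) on the log2 scale. The gene lies on chromosome 14 (chr14:16430839-16819156, minus strand) and overlaps Top2b and Gm48162 on the other strand.

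Promoter windows were available for 8 of the 9 members, 15 windows in all, and not for Rdh10. The DR5 retinoic acid response element, a pair of direct repeats of the receptor half-site with a spacer of 5 bases, was searched on both strands. It occurred in 32 of 32851 windows (0.0974%), and Rarb was the only member with a match. The Rarb window (chr14:16575427-16575726, GRCm38.p6, minus strand, RefSeq) is printed with the match in capitals, with 36 bases between it and the start site. A match is a description of the letters and was not tested as a site.
Rarb: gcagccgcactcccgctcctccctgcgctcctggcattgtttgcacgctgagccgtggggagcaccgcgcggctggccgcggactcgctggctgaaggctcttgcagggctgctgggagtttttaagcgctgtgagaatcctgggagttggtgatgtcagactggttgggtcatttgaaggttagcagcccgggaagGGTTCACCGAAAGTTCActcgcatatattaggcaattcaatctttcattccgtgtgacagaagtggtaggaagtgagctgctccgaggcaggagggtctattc

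**Figure D3:**
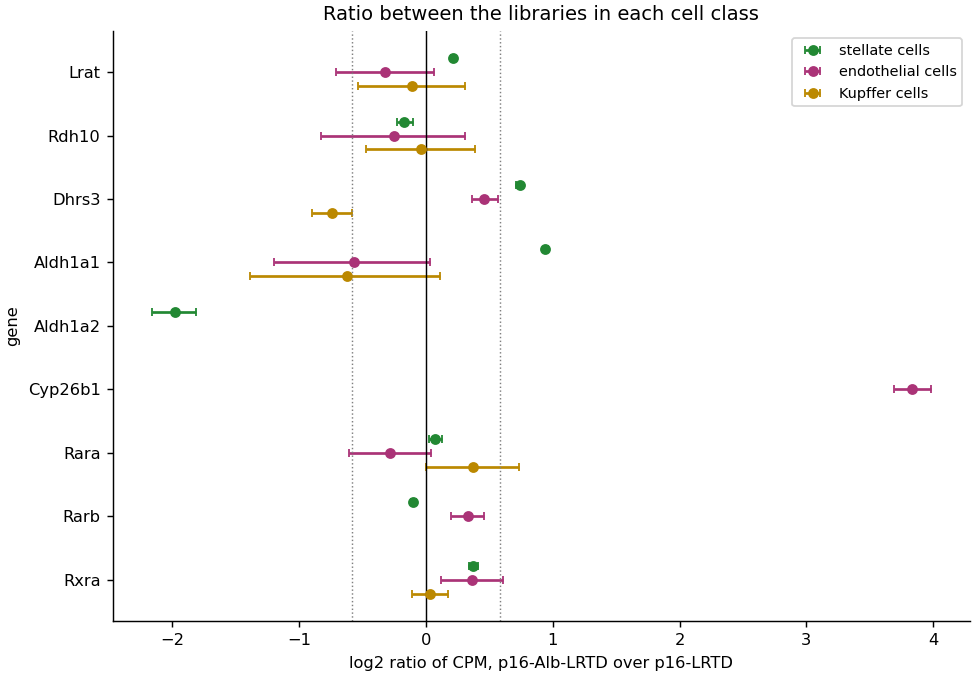
Log2 ratio of CPM, p16-Alb-LRTD over p16-LRTD, with exact 95% counting intervals, for each gene with a mean of at least 5 CPM in stellate (green), endothelial (purple) or Kupffer cells (yellow). Dotted lines mark 1.5-fold. Cyp26b1 in endothelial cells lies at 3.83 and Aldh1a2 in stellate cells at -1.98, and Dhrs3 lies to the right of 0 in stellate and endothelial cells and to the left in Kupffer cells.

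Counted over the set, 8 members reached the expression minimum in stellate cells, 8 in endothelial cells and 6 in Kupffer cells. In stellate cells Dhrs3 and Aldh1a1 were past 1.5-fold higher in p16-Alb-LRTD, where 3.03% of 10179 genes were, and Aldh1a2 was past 1.5-fold lower, where 3.05% were. Nothing is read from the Aldh1a2 count, since it reached the minimum only through the library where it is high. Endothelial cells had Cyp26b1 past 1.5-fold higher, against 6.44% of 9858 genes, and no member past 1.5-fold lower, against 13.5%. Kupffer cells had no member past 1.5-fold higher, against 5.21% of 9514 genes, while Dhrs3 and Aldh1a1 were past 1.5-fold lower, against 6.83%. The Dhrs3 ratio was under 1.5-fold, at -0.54, with doubled class thresholds. The interval of the Aldh1a1 ratio ran from -1.39 to 0.11 on 49 and 24 UMIs, of which 1 p16-LRTD cell held 17, and the ratio of per-cell means was -0.13, so its count in Kupffer cells is not read as a difference. The median log2 ratio of the members was 0.14 in stellate cells, 0.04 in endothelial cells and -0.07 in Kupffer cells, beside -0.05, -0.10 and -0.06 over all genes tested. The stellate median takes in Lrat, a gene of the stellate definition, and Aldh1a2, so it is a description only. With a stellate definition without Lrat the median of the same members was 0.14.

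Stellate cells of the libraries differed in collagen level, so the members were also followed in 5 bins of summed Col1a1, Col1a2 and Col3a1 transcripts, cut at the pooled quintiles. Bin 5, the highest in collagen, held 2470 p16-LRTD cells (31.5%) and 425 p16-Alb-LRTD cells (6.42%). Aldh1a1 was almost flat over the bins, from 412.1 to 442.3 CPM in p16-LRTD and from 776.7 to 884.4 CPM in p16-Alb-LRTD. Its log2 ratio between the libraries lay between 0.90 and 1.04 in all 5 bins. Bin 5 has no upper end, and its collagen level reached 1298.4 per 10000 UMIs in p16-LRTD and 388.0 in p16-Alb-LRTD, so its cells were not matched in collagen. In the 4 bins with an upper end the Aldh1a1 ratio was close to that of all stellate cells.

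Dhrs3 and Rarb were higher in bin 5 than in bin 1 in either library. Dhrs3 was 2.73-fold higher in bin 5 than in bin 1 of p16-LRTD and 2.44-fold higher in p16-Alb-LRTD. Within bins its log2 ratio between the libraries was 0.97, 1.29, 1.45, 1.14 and 0.80, in each case above the 0.74 of all stellate cells. With pooled bin shares it was 1.08. Rarb was 1.81-fold and 1.86-fold higher in bin 5 than in bin 1, but in p16-LRTD it stood at 188.4, 174.3 and 181.0 CPM in bins 1 to 3 before 250.8 and 341.2. Its log2 ratio was -0.15 in bin 1, 0.23, 0.42 and 0.32 in bins 2 to 4, and -0.11 in bin 5, none with an interval that included 0. The sign of the Rarb ratio thus differed between bins, and with pooled bin shares it was 0.13 in place of -0.10.

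Aldh1a2 had the steepest rise with collagen among the members. It went from 0.683 CPM (0.373 to 1.15) in bin 1 to 21.7 CPM (20.5 to 23.0) in bin 5 of p16-LRTD, and from 0.704 CPM (0.430 to 1.09) to 8.01 CPM (6.21 to 10.2) in p16-Alb-LRTD. In bins 1 to 3 the log2 ratios between the libraries were 0.04 (-1.01 to 1.14), 0.05 (-0.58 to 0.71) and -0.08 (-0.59 to 0.43). They were -1.06 (-1.40 to -0.72) in bin 4 and -1.44 (-1.81 to -1.08) in bin 5, and with pooled bin shares the ratio was -1.04. The values of bin 5, and those with pooled shares, compare cells whose collagen level was not matched at the upper end. Rxra was lower at high collagen, 2.42-fold and 2.0-fold lower in bin 5 than in bin 1. Its ratios within bins were 0.16, 0.05, -0.09, 0.10 and 0.44, and with pooled bin shares 0.10 in place of 0.37. Lrat was 1.18-fold and 1.15-fold lower in bin 5 than in bin 1, with ratios between the libraries of 0.07 to 0.16.

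**Figure D4:**
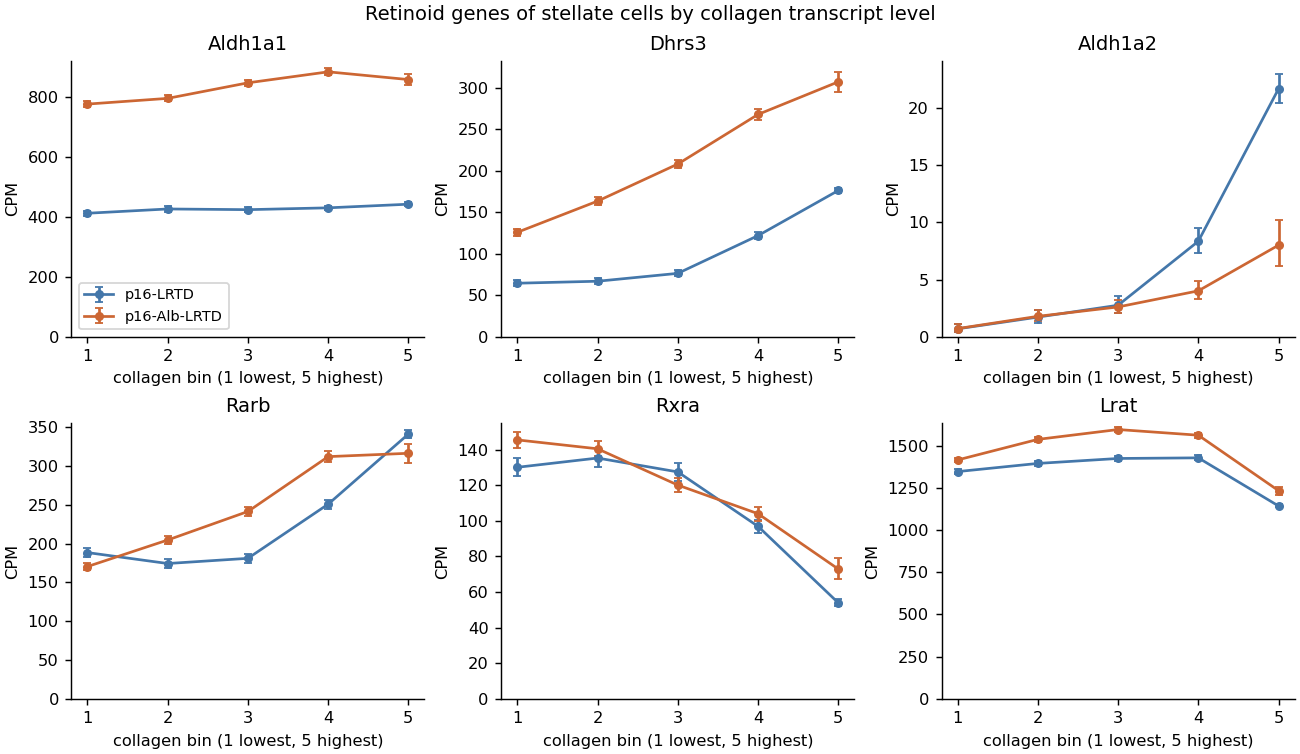
CPM of 6 members in stellate cells over 5 bins of collagen transcripts, from 1 (lowest) to 5 (highest), in p16-LRTD (blue) and p16-Alb-LRTD (orange), with 95% exact Poisson intervals. The Aldh1a1 log2 ratios lie between 0.90 and 1.04, those of Dhrs3 go up from 0.97 in bin 1 to 1.45 in bin 3 and down to 0.80 in bin 5, those of Aldh1a2 are -1.06 and -1.44 in bins 4 and 5, and the Rarb curves cross.

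Stellate cells were also divided by genes of lobular position, a division tied to collagen. By Ngfr, Igfbp3 and Itgb3 against Adamtsl2, Rspo3 and Spon2, 5380 p16-LRTD and 4193 p16-Alb-LRTD stellate cells were portal and 2357 and 2281 central. The central share went from 4.91% of cells in collagen bin 1 to 58.6% in bin 5 of p16-LRTD and from 21.2% to 52.7% in p16-Alb-LRTD, so position and collagen cannot be told apart here. The side genes differed between the libraries, with log2 ratios of -0.46 for Ngfr, which is also known from quiescent HSCs, -0.23 for Igfbp3, -0.20 for Itgb3, -0.33 for Adamtsl2, 0.27 for Rspo3 and -0.95 for Spon2. Dhrs3 was higher on the central side, by log2 ratios of 0.90 (0.85 to 0.94) in p16-LRTD and 0.78 (0.75 to 0.82) in p16-Alb-LRTD. Rarb was higher there by 0.65 (0.62 to 0.68) and 0.73 (0.70 to 0.76), and Aldh1a2 by 1.26 (1.11 to 1.41) and 1.02 (0.70 to 1.35). Rxra was lower there, by -0.67 (-0.72 to -0.61) and -0.27 (-0.32 to -0.22). Aldh1a1 was level between the sides, at 429.4 and 432.5 CPM in p16-LRTD and 829.0 and 828.5 CPM in p16-Alb-LRTD. For Lrat the sides differed in sign between the libraries, with -0.20 (-0.22 to -0.19) in p16-LRTD and 0.06 (0.05 to 0.08) in p16-Alb-LRTD. Between the libraries the central ratio of Rxra was 0.66 (0.60 to 0.72) and the portal 0.26 (0.22 to 0.30).

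A wider list of 104 genes of retinoid uptake, binding, esterification, oxidation, clearance and response placed the members in their pathway. In stellate cells 53 of its 95 other genes reached the minimum, of which 2 were past 1.5-fold higher in p16-Alb-LRTD (3.77%, against 3.03% of all genes) and 0 past 1.5-fold lower (against 3.05%). The share of higher genes was near that background. The higher genes were Nr4a1, an immediate early nuclear receptor, at 43.7 and 116.6 CPM, and Thrb, a thyroid hormone receptor, at 9.01 and 18.7 CPM. The carotene cleaving enzyme Bco1 held 195.2 and 238.5 CPM. The bile acid receptor Nr1h4, an Rxra partner, held 843.6 and 595.7 CPM, the uptake receptor Lrp1 579.7 and 641.8 CPM, the orphan receptor Rora 554.6 and 587.7 CPM, the co-repressor Ncor1 298.2 and 296.7 CPM, and Cyp1b1 of the clearance group 1.95 and 0.999 CPM.

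In endothelial cells 54 of the other genes reached the minimum, of which 3 were past 1.5-fold higher (5.56%, against 6.44% of all genes) and 9 lower (16.7%, against 13.5%). Nr4a1 (log2 ratio 0.96), Nr4a2 (0.87) and the lipase Lipe (0.65) were higher. Among the lower genes were the lipoprotein lipase Lpl, from 26.6 to 7.53 CPM (-1.82), Pparg (-1.15), Rdh13 (-0.83), Adh5 (-0.71) and the retinoic acid target Meis1 (-0.71). Lpl stood at 11.7% and 3.76% of its stellate level, and Kupffer cells held 2132.0 and 1552.3 CPM of it. It is not read as an endothelial difference. Lrp1, Nr1h4 and the retinoic acid target Rarres2, also among the 9, stood between 1.16% and 2.61% of their stellate levels, beside 1.73% and 1.16% for Dcn, and are not read as endothelial differences. Of the 14 retinoic acid targets that reached the minimum, members included, 1 was past 1.5-fold higher and 2 lower, with a median log2 ratio of 0.12. Of these targets Tgm2 held 204.6 and 302.0 CPM (0.56) and Hic1 47.6 and 32.9 CPM (-0.53), both short of 1.5-fold. Meis2 held 1711.3 and 1565.6 CPM, Cd36 1079.1 and 955.8 CPM, Rora 497.2 and 615.1 CPM, Mgll 368.0 and 525.7 CPM, Ncor1 361.2 and 373.3 CPM, Fabp5 261.8 and 267.6 CPM, and Thra 108.5 and 99.4 CPM.

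In Kupffer cells 48 of the other genes reached the minimum, of which 4 were past 1.5-fold higher (8.33%, against 5.21% of all genes) and 9 lower (18.8%, against 6.83%). The co-activator Ncoa1 (1.06), Lipe (1.05), Nr4a1 (0.94) and the ectoenzyme Cd38 (0.73) were higher. Fabp5, which binds fatty acids and retinoic acid, was lower at 536.6 and 136.8 CPM, a log2 ratio of -1.97 (-2.10 to -1.85). Hic1 (-0.81), Dhrs7 (-0.61) and the lysosomal lipase Lipa (-0.61) were lower as well. Akr1b8, at 10.8 and 2.68 CPM, and Rarres1, at 7.74 and 2.46 CPM, reached the minimum only through p16-LRTD. Rora, Nr1h4 and Nr2f2, the rest of the 9, stood between 0.600% and 2.34% of their stellate levels, beside 1.31% and 1.0% for Dcn, and are not read as Kupffer differences. With these genes, Akr1b8 and Rarres1 making up 5 of the 9, nothing is read from the share of lower genes. Lpl held 2132.0 and 1552.3 CPM, Tgm2 538.6 and 670.4 CPM, Nrip1 415.0 and 451.6 CPM, Nr1h3 379.0 and 385.6 CPM, and Cyp1b1 2.02 and 0.447 CPM.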

How the data were processed

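Single-cell libraries were made with the 10x 3' v3.1 kit, which reads transcripts near their 3' end. The deposited values are unnormalised UMI counts for each feature in each barcode, from Cell Ranger 7.0.1 and mm10 per the submitters' processing notes. Of 31054 feature identifiers, 31011 matched GENCODE vM21 (GRCm38), the source of gene coordinates. The quality limits of the study were applied here: at most 5% mitochondrial UMIs, 2000 to 7000 genes and at most 50000 UMIs. Of 9004 and 7416 kept barcodes, 245 and 221 met several class definitions and were left out as possible mixtures, and 194 and 113 met none. No doublet caller was run. Median depths of stellate cells were 17024 and 18136 UMIs.

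Counts were summed per class and library and scaled to CPM. Intervals are exact Poisson for levels, exact conditional for ratios and Clopper-Pearson for shares, all at 95%, and were tested on simulated data (Python 3.11.15, numpy 2.4.6, scipy 1.17.1). They cover counting error only, neither mice nor library preparation. Genes needed a mean of 5 CPM, and 1.5-fold stands in for a test. TMM factors came from edgeR 4.0.16. Named genes were all 9 members, genes of the wider list past 1.5-fold, the most abundant gene of each of its roles, and the 3 genes of most similar pattern for a member, of which the nearest are given. Some genes that this rule names are not reported here. Members, lists and definitions were chosen with earlier results of these data known.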

Additional observations from a re-analysis of the deposited data

Results flagged for a closer look

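The ratio of Dhrs3 between the libraries had opposite signs in different classes, with log2 ratios of 0.74 in stellate cells, 0.46 in endothelial cells and -0.74 in Kupffer cells, each with a counting interval that excluded 0. The endothelial ratio of Dhrs3 lay between 0.26 and 0.61 over 14 alternatives, lowest with pooled lobular sides. Its Kupffer ratio stayed below 0 under all 13 alternatives, from -0.92 to -0.38. Rarb had log2 ratios of 0.33 in endothelial cells and -0.10 in stellate cells, and either changed sign under an alternative, the endothelial one with sides called with Wnt2 and not without it. With 1 library per genotype the differences between classes were not tested.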

How the results depend on the processing

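No paired analysis was possible because there was just 1 library of a genotype, and no library could be left out. Of 358 recomputed log2 ratios of single members, 287 stayed within the counting interval of the reported value, 68 moved outside it with the same sign or from an interval that included 0, and 3 reversed. The Cyp26b1 ratio of endothelial cells lay between 3.59 and 4.02 over 14 alternatives, and in stellate cells Aldh1a1 lay between 0.91 and 0.99, Dhrs3 between 0.65 and 1.08 and Aldh1a2 between -2.08 and -1.04 over 16. The reversals were Rarb, in stellate cells at 0.00 with means of per-cell CPM and 0.13 with pooled collagen shares, and in endothelial cells at -0.03 with pooled lobular sides, where it was 0.07 with sides called without Wnt2. TMM and median-of-ratios scaling shifted all log2 ratios by 0.04 and 0.05 in stellate, 0.08 and 0.10 in endothelial, and 0.05 and 0.06 in Kupffer cells.

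The stellate median of 0.14 was 0.21 with barcodes of several classes kept or a minimum of 1 CPM, 0.19 with either scaling, 0.11 without cells with a Mki67, Top2a or Cdk1 UMI, and 0.10 without cells with a mesothelial or portal fibroblast UMI. Of the stellate members past 1.5-fold, 0 were past 2-fold higher, and 0 were lower without the mesothelial or portal fibroblast cells, where Aldh1a2 was under the minimum. The endothelial median of 0.04 was 0.48 with barcodes of several classes kept and -0.25 at 1 CPM. Members higher in endothelial cells numbered 3 with barcodes of several classes and 2 without the cells richer in hepatocyte transcripts. Those lower numbered 2 with doubled thresholds, Lrat and Aldh1a1, 1 at 1 CPM and 1 with pooled sides, called with or without Wnt2. In Kupffer cells 1 member was higher with barcodes of several classes, a mitochondrial limit of 10%, or without the cells richer in hepatocyte transcripts. The 2 lower Kupffer members became 0 with doubled thresholds, all barcodes, 10000 to 30000 UMIs, per-cell means or 2-fold, and 1 without the hepatocyte-rich cells, with Clec4f cells only, or with either scaling. The causes were not tested. Endothelial and Kupffer cells gave few UMIs for the low members, which leaves those ratios with wide counting intervals.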
